A study of Drosophila melanogaster with 4 samples.

Results

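The genes described here are 10 chaperone system genes of Drosophila melanogaster: the J-domain genes DnaJ-1, mrj, Droj2, Tpr2 and jdp, the co-chaperone genes stv, Hop and STUB1, the chaperone gene Hsp83 and the heat shock transcription factor gene Hsf. They were chosen by symbol from 15682 genes in the deposited table, and all 10 were found by FlyBase gene ID and were abundant enough to test, among 9049 tested genes. Hop is listed as Stip1 in the current annotation and is a different gene from hop, the fly Janus kinase. Poly(A) RNA was sequenced from whole heads in 4 libraries. Of these, 2 came from flies expressing MJDtr-78Q, a fragment of human ataxin-3, the protein altered in Machado-Joseph disease, whose polyglutamine stretch is expanded, and 2 from w1118 flies, which do not express it. The labels name no promoter or driver for the transgene, no age or sex of the flies and no number of heads per library, nor do they say whether the MJDtr-78Q flies share the w1118 background. The comparison asks how transcripts of the head differ when the toxic protein is present.

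Hsp70 chaperones bind and release unfolded proteins in a cycle driven by ATP. J-domain proteins, also called Hsp40 proteins, bring clients to Hsp70 and stimulate its ATP hydrolysis, nucleotide exchange factors such as BAG-domain proteins reset it, and TPR proteins link it to Hsp90 or to ubiquitin ligases. Several of these co-chaperones were found in Drosophila as modifiers of polyglutamine toxicity in the eye, DnaJ-1 and Tpr2 among them, and Hsf switches on many chaperone genes during heat stress.

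In heads expressing MJDtr-78Q, none of the 10 genes passed the test over all genes. Relative to w1118 heads the lowest values belonged to stv, which was 2.09-fold lower, Hsp83, 1.48-fold lower, and DnaJ-1, 1.31-fold lower. The other J-domain genes, Hop, STUB1 and Hsf differed by at most 0.25 in log2 terms in either direction. The test was limma with Benjamini-Hochberg adjustment, with n = 2 per group, and it called 0 of 9049 genes at adjusted p of 0.05, a background of 0%. Before adjustment, p was under 0.05 for 532 genes, a background of 5.88%, and for 1 of the 10, stv. Values below are log2(normalized count + 1) after quantile normalization of the 4 libraries together, unless a per-length level is named, and differences are MJDtr-78Q minus w1118 on that log2 scale.

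The deposited libraries summed, after back-transformation, to 3111583 and 3111393 counts in MJDtr-78Q libraries and 7147867 and 7147717 in w1118 libraries, totals that the authors' normalization had made nearly equal within a group. As deposited, all tested genes together were shifted by a median of -1.24. After common normalization the median of all tested genes was -0.02 (quartiles -0.23 and 0.19). Across genes, MJDtr-78Q library 1 correlated with MJDtr-78Q library 2 at r = 0.910, below the r = 0.953 of MJDtr-78Q library 2 with w1118 library 2, so the MJDtr-78Q libraries stood apart from each other. The libraries also differed by transcript length, in the same sense by replicate number in both groups. In the shortest of 4 equal bins of genes the median deviation from the gene mean was -0.43 and 0.31 in MJDtr-78Q libraries 1 and 2, and -0.08 and 0.24 in w1118 libraries 1 and 2. In the longest bin it was 0.43 and -0.31 in MJDtr-78Q libraries and 0.08 and -0.18 in w1118 libraries. No value of the human transgene was used here, so the group labels rest on the titles alone. Markers of neurons, glia, photoreceptors, muscle, fat body and hemocytes, where a row was found for them, were each above 0 in at least 1 library.

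Per kilobase of annotated exon, the genes spanned a wide range of levels. Hsp83, which encodes the cytosolic Hsp90, averaged 4319 normalized counts per kb over the 4 libraries, above 99.1% of tested genes with a length. Droj2 followed at 1362 counts per kb, DnaJ-1 at 863 and jdp at 853. The order then ran stv at 441, Tpr2 at 375, STUB1 at 283, Hop at 207, mrj at 135 and Hsf at 117 counts per kb. All 10 lay above the middle of the tested genes, with Hsf the lowest at the 63.0th percentile. Neighbours whose library ranges overlapped, and so were not separated, were DnaJ-1 and jdp, stv and Tpr2, Tpr2 and STUB1, STUB1 and Hop, and mrj and Hsf. Within the groups, the order of some neighbours differed. stv had 301 and 269 counts per kb in MJDtr-78Q heads, below Tpr2 at 375 and 436, whereas in w1118 heads stv had 539 and 656 and Tpr2 358 and 333. Likewise DnaJ-1 had 767 and 730 counts per kb in MJDtr-78Q heads, below jdp at 978 and 867, whereas in w1118 heads DnaJ-1 had 945 and 1011 and jdp 825 and 741. These changes of order were not tested.

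**Figure D1:**
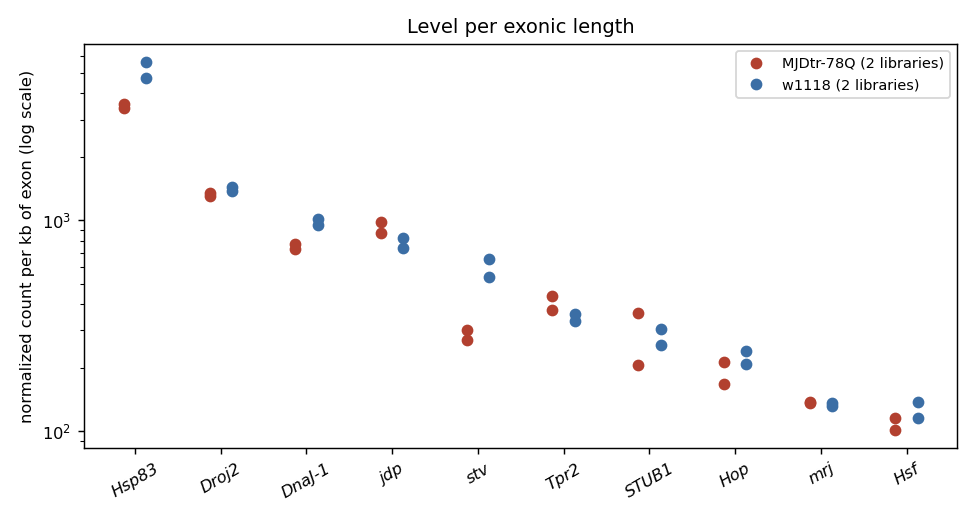
Normalized counts per kb of exon (log axis) for the 10 genes, 1 point per library, with the 2 MJDtr-78Q libraries left of the 2 w1118 libraries. Hsp83 lies highest, from 3398 to 5604 counts per kb, and stv lies below Tpr2 in MJDtr-78Q heads (301 and 269 against 375 and 436) and above it in w1118 heads.

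Among the J-domain genes, DnaJ-1 (FBgn0263106, 3L, positions 5743129 to 5745289, numbered from 1) encodes the heat-inducible Hsp40 that suppresses polyglutamine toxicity in the fly eye. It was at 10.70 and 10.63 in MJDtr-78Q libraries, against 10.997 and 11.094 in w1118 libraries. Both MJDtr-78Q libraries lay below both w1118 libraries, and the gap between groups was wider than that within either. The difference was -0.39 (SE 0.22, 95% interval -0.96 to 0.19), with a limma adjusted p = 1 and an unadjusted p = 0.142. With 1 library left out it stayed between -0.43 and -0.34.

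Tpr2 (FBgn0032586, 2L, positions 16491540 to 16507621) encodes a protein with both a J domain and TPR repeats. It was at 10.16 and 10.37 in MJDtr-78Q libraries, against 10.09 and 9.99 in w1118 libraries, with MJDtr-78Q library 1 only slightly above w1118 library 1. The difference was 0.23 (SE 0.23), limma adjusted p = 1. Leaving out MJDtr-78Q library 2 gave 0.12, and leaving out MJDtr-78Q library 1 gave 0.34. After removal of the length trend the groups overlapped, with a difference of 0.21.

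The smaller J-domain gene jdp (FBgn0027654, 3R, positions 26342774 to 26352761) encodes the fly counterpart of human DNAJC12. It was at 11.06 and 10.88 in MJDtr-78Q libraries, against 10.81 and 10.66 in w1118 libraries. Its libraries did not overlap between groups, and its difference of 0.24 had an SE of 0.23, so neither jdp nor Tpr2 was separated from 0. The jdp difference was 0.15 without MJDtr-78Q library 1, 0.16 without w1118 library 2 and 0.32 without MJDtr-78Q library 2.

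The counterpart of human DNAJB6 and a known suppressor of polyglutamine aggregation, mrj (FBgn0034091, 2R, positions 12090834 to 12109298), had nearly the same value in every library. It was at 8.83 and 8.80 in MJDtr-78Q libraries, against 8.76 and 8.80 in w1118 libraries. The difference was 0.03 (SE 0.22), and its 95% interval of -0.53 to 0.60 is short of 2-fold in either direction after common normalization. With the deposited scaling the difference was -1.13, where all tested genes shifted by a median of -1.24. With 2 libraries per group, which may not come from separate flies, the interval does not exclude a larger difference. Among the genes described, only stv and Hsp83 had intervals reaching past 2-fold, so this bound does not set mrj apart. One antisense RNA gene shares exon sequence with mrj and was at 1.198 or 0 in the 4 libraries, too low to be tested.

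Droj2 (FBgn0038145, 3R, positions 9207799 to 9211013), a counterpart of the human DNAJA proteins, was at 11.63 and 11.59 in MJDtr-78Q libraries, against 11.68 and 11.73 in w1118 libraries. The MJDtr-78Q libraries were the lower pair, by a difference of -0.10 (SE 0.21, 95% interval -0.65 to 0.46). As with mrj, the interval is short of 2-fold after common normalization, and the same limits apply. Across the 5 J-domain genes the differences therefore ran from -0.39 to 0.24, with 2 below 0 and 3 above.

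**Figure D2:**
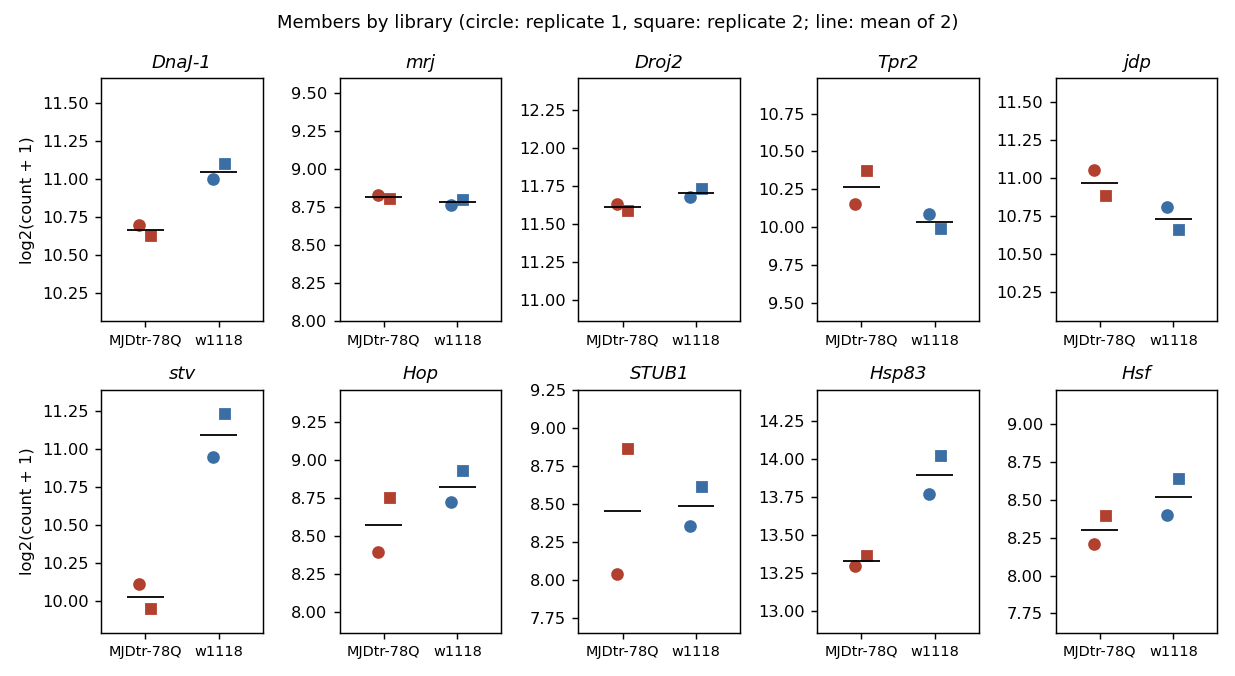
log2(normalized count + 1) of each gene in each library, with MJDtr-78Q left of w1118; circles are replicate 1, squares replicate 2, and lines the mean of 2, and every panel spans 1.6 log2 units. The 2 MJDtr-78Q points of stv (10.11 and 9.95) lie well below its w1118 points (10.95 and 11.23), while those of STUB1 (8.04 and 8.86) lie either side of its w1118 points.

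The co-chaperone gene stv (starvin; FBgn0086708, 3L, positions 13470641 to 13476615) encodes a BAG-domain nucleotide exchange factor of Hsp70, related to human BAG3, which acts in the turnover of damaged muscle proteins. It was at 10.11 and 9.95 in MJDtr-78Q libraries, against 10.95 and 11.23 in w1118 libraries. No MJDtr-78Q value came near a w1118 value, and stv averaged 10.03 ± 0.12 in MJDtr-78Q heads and 11.09 ± 0.20 in w1118 heads (SD, n = 2 each). The difference of -1.06 (SE 0.24, 95% interval -1.69 to -0.44) had an unadjusted p = 0.0075, rank 108 of 9049 tested genes, and did not pass the limma test (adjusted p = 0.612). It ranged from -1.19 to -0.91 with 1 library left out and was -1.10 after length correction. As deposited, stv was at 9.53 and 9.37 in MJDtr-78Q libraries and at 11.55 and 11.85 in w1118 libraries, before any scaling between groups.

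Many photoreceptor markers, but not all, had lower values in the same libraries. Of 11 photoreceptor markers in the table, 8 had both MJDtr-78Q libraries below both w1118 libraries, against 15.5% of all tested genes, and their median difference was -1.06. None of the 11 passed the test over all genes. Their summed normalized counts were 88269 and 73473 in MJDtr-78Q libraries and 141591 and 140614 in w1118 libraries, and none of the markers was at 0. The 3 of lowest p were the light-activated channel gene trpl, at -3.03 (SE 0.23), the opsin gene Rh4, at -1.45 (SE 0.23), and the arrestin gene Arr2, at -1.34 (SE 0.22). The 3 markers with overlapping groups were trp, at 0.24 (SE 0.27), ninaC, at -0.01 (SE 0.44), and norpA, at -0.34 (SE 0.42). They were named after their values were seen. Their exonic sequences are long, at 4149, 5425 and 8296 nucleotides, and in each MJDtr-78Q library 1 lay above library 2. Other abundant markers were among the lower 8, such as ninaE, at -1.09 (SE 0.20), and Arr1, at -1.15 (SE 0.25). Neither length nor library order set the 3 apart. The lower marker trpl, of 3893 nucleotides, is also in the longest bin. MJDtr-78Q library 1 also lay above library 2 in trpl, ninaE, Rh6 and inaD, and below it in Rh3, Rh4, Arr1 and Arr2. After length correction the median difference of the 11 markers was -0.997, with 10 below 0. The part of the photoreceptor markers in the stv difference was not tested. Muscle markers had a median difference of 0.50 over 8 tested genes, and their part in the stv difference was not tested either. Relative to all tested genes this median was 0.52 with the 4 libraries, and from 0.39 to 1.18 with 1 left out. Without MJDtr-78Q library 1, 3 of the 8 were below 0, and Mhc, bt and sls had overlapping groups. Summed muscle marker counts were 73748 and 46708 in MJDtr-78Q libraries and 40743 and 37282 in w1118 libraries. Mhc was at 15.40 and 13.64 in MJDtr-78Q libraries 1 and 2. The medians of the other marker lists were 0.62 for hemocytes, with 5 of 6 above 0, 0.22 for neurons, 0.15 for glia and -0.04 for fat body. Without MJDtr-78Q library 1 these medians were 0.29, -0.35, -0.13 and 0.06, so only that of hemocytes kept its sign. Single fat body markers ran from -1.40 to 1.96. In RNA from whole heads, fewer cells of a type and less RNA per cell cannot be told apart.

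Hop (FBgn0024352, 2L, positions 295122 to 297449) encodes the TPR protein that hands clients from Hsp70 to Hsp90. It was at 8.40 and 8.75 in MJDtr-78Q libraries, against 8.72 and 8.93 in w1118 libraries, so MJDtr-78Q library 2 lay between the w1118 libraries. The difference was -0.25 (SE 0.25). It was -0.07 without MJDtr-78Q library 1, -0.15 without w1118 library 2 and -0.42 without MJDtr-78Q library 2.

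STUB1 (FBgn0027052, 2L, positions 10437548 to 10439240), also called CHIP, encodes a ubiquitin ligase that tags clients of Hsp70 and Hsp90 for degradation. It was at 8.04 and 8.86 in MJDtr-78Q libraries, against 8.35 and 8.61 in w1118 libraries. The gap of 0.82 between the MJDtr-78Q libraries was the widest within-group gap of any of the 10 genes, and it enclosed both w1118 values. STUB1 also has the shortest exonic sequence of the 10, 1277 nucleotides. Its difference of -0.03 (SE 0.35) changed sign between settings: it was 0.37 without MJDtr-78Q library 1, -0.44 without MJDtr-78Q library 2, and 0.04 after length correction. The 95% interval, -0.94 to 0.88, stays short of a 2-fold difference after common normalization, with the limits given for mrj.

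Hsp83 (FBgn0001233, 3L, positions 3192969 to 3197059) encodes the Hsp90 that folds kinases and receptors and, with its partners, holds Hsf inactive. It was at 13.30 and 13.36 in MJDtr-78Q libraries, against 13.77 and 14.02 in w1118 libraries. Both MJDtr-78Q values were lower than both w1118 values and close to each other, and Hsp83 averaged 13.33 ± 0.05 in MJDtr-78Q heads and 13.89 ± 0.18 in w1118 heads (SD, n = 2 each). The difference of -0.56 (SE 0.22, 95% interval -1.13 to 0.00089) had an unadjusted p = 0.0502 and a limma adjusted p = 0.843. It was -0.72 without w1118 library 1 or -0.46 without w1118 library 2. The end of Hsp83 shares exon sequence with CG14966 on the opposite strand, which was at 4.82 and 5.56 in MJDtr-78Q libraries and 5.65 and 6.10 in w1118 libraries. Whether reads were counted by strand is not stated in the labels; CG14966 is far less abundant than Hsp83.

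The transcription factor gene Hsf (FBgn0001222, 2R, positions 14017808 to 14022136), the single heat shock factor of the fly, was at 8.21 and 8.39 in MJDtr-78Q libraries, against 8.40 and 8.64 in w1118 libraries. MJDtr-78Q library 2 and w1118 library 1 were 0.01 apart, so the groups only just failed to overlap, and they did overlap after length correction and with the deposited scaling once its median shift was removed. The difference was -0.22 (SE 0.24, 95% interval -0.84 to 0.39). It was -0.10 without w1118 library 2, -0.13 without MJDtr-78Q library 1 and -0.34 without w1118 library 1. Hsf activity is known to be regulated mainly at the level of the protein, which was not measured.

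Over the 10 genes, the median difference was -0.16, against -0.02 over all tested genes, with 7 below 0 and 3 above, against 53.4% below and 46.6% above over all tested genes. At least 2-fold lower was 1 of the 10, stv, against 2.50% of all tested genes, and 0 were at least 2-fold higher, against 3.38%. The median was -0.33 without MJDtr-78Q library 2, -0.25 without w1118 library 1, -0.09 without MJDtr-78Q library 1 and -0.09 without w1118 library 2. The groups did not overlap for 8 of the 10, against 29.5% of all tested genes. Both MJDtr-78Q libraries lay below both w1118 libraries for 5 of the 10, against 15.5% of all tested genes, and above them for 3, against 14.0%. After length correction these were 5 of the 10, against 21.9% of all tested genes with a length, and 1 of the 10, against 19.9%, with Hop now separated and mrj, Tpr2 and Hsf overlapping. For mrj and Droj2 the separation between groups was no more than 0.1, so a non-overlap there describes very even replicates and not a large difference.

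**Figure D3:**
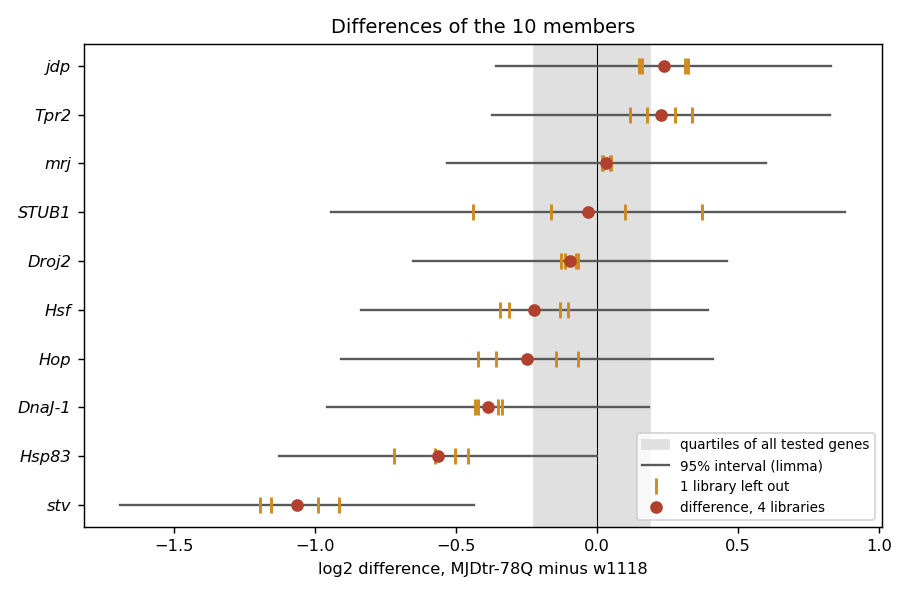
Log2 differences, MJDtr-78Q minus w1118, of the 10 genes (circles) with limma's 95% intervals (lines) and the value with each library left out (ticks); the shaded band spans the quartiles of all tested genes, -0.23 to 0.19. The interval of stv lies wholly below 0, that of Hsp83 ends at 0.00089, and the others cross 0.

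Other genes of the same machinery were described from lists. Of 30 tested genes encoding other J-domain proteins, 0 passed the limma test over all genes and 0 had an unadjusted p under 0.05, and the median difference was -0.04. Their differences ran from -0.98 to 0.44. The 3 of lowest p were CG32640, at -0.98 (SE 0.41), CG32641, at -0.66 (SE 0.33), and CG7133, at -0.42 (SE 0.23). CG32640 and CG32641 are neighbouring genes of equal length, so reads may have been divided between them. Csp, the synaptic vesicle J-domain protein, differed by 0.03 (SE 0.26), and Sec63, the J-domain protein of the endoplasmic reticulum translocon, by -0.05 (SE 0.22); these 2 were chosen after their values were seen. DnaJ-60 and CG12020 were listed at 0 in all 4 libraries.

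Factors that reset or bind Hsp70 gave no call. The 7 tested genes had a median of 0.04, which ran from -0.10 to 0.08 with 1 library left out, with 0 passing the limma test and 0 at an unadjusted p under 0.05. The 3 of lowest p were CG10973, at -0.46 (SE 0.46, 95% interval -1.66 to 0.73), Hsc70Cb, which encodes the Hsp110 exchange factor, at -0.21 (SE 0.23), and HIP, which encodes an Hsp70-interacting protein, at -0.17 (SE 0.22). Hsc70Cb shares with stv the task of nucleotide exchange. It was at 10.15 and 9.97 in MJDtr-78Q libraries, against 10.22 and 10.32 in w1118 libraries.

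The list of Hsp90 co-chaperones, which as fixed also holds Gp93 and Trap1, the Hsp90 family chaperones of the endoplasmic reticulum and the mitochondrion, gave a median of -0.05 over 12 tested genes, 8 of them below 0, with 0 passing the limma test over all genes. At an unadjusted p under 0.05, 1 was higher and 0 were lower, against 3.46% and 2.42% of all tested genes. That gene, nudC, which encodes a nuclear movement protein that works with dynein and Hsp90, was at 7.96 and 8.31 in MJDtr-78Q libraries, against 7.36 and 7.05 in w1118 libraries. Its difference was 0.93 (SE 0.26), limma adjusted p = 0.66. CHORD, a CHORD-domain partner of Hsp90, differed by -0.41 (SE 0.28), and Cdc37, which delivers kinases to Hsp90, by -0.37 (SE 0.35).

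Among 5 genes linked to stress regulation beside Hsf, the median was 0.05 and 0 passed the limma test, with 0 at an unadjusted p under 0.05. The noncoding stress transcript Hsromega differed by -0.58 (SE 0.34), the stress response factor gene cnc by 0.50 (SE 0.43) and the deacetylase gene Sirt1 by -0.14 (SE 0.22). The heat-inducible Hsp genes, many of them targets of Hsf, had a median of -0.97 over 12 tested members. All 12 were below 0 with the 4 libraries, against 53.4% of all tested genes. It was 10 of 12 without MJDtr-78Q library 1 or without w1118 library 2, and 11 of 12 without MJDtr-78Q library 2. The copies Hsp70Aa, Hsp70Ab, Hsp70Ba, Hsp70Bb, Hsp70Bbb and Hsp70Bc have exonic lengths from 2324 to 2386 nucleotides, so reads may have been divided among them. The 12 may therefore not count as separate genes. Both MJDtr-78Q libraries lay below both w1118 libraries for 6 of the 12, against 15.5% of all tested genes. The groups overlapped for the rest. Of the 12, 0 passed the limma test over all genes, and 5 were lower at an unadjusted p under 0.05, against 2.42% of all tested genes. Hsp27, Hsp68 and Hsp26 had the lowest p, with differences of -2.72 (SE 0.47), -2.31 (SE 0.50) and -1.91 (SE 0.52). The heat-inducible list gave a median relative to all tested genes of -0.95 with the 4 libraries, -0.64 without w1118 library 2 and -1.39 without MJDtr-78Q library 2. The other medians were small and changed sign with the libraries used. Without MJDtr-78Q library 2, against without MJDtr-78Q library 1, the medians relative to all tested genes were -0.28 and 0.09 for J-domain genes, -0.07 and 0.09 for Hsp70 partners, and -0.27 and 0.05 for the Hsp90 list. For the stress regulators it was -0.12 without w1118 library 2 and 0.10 without w1118 library 1.

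**Figure D4:**
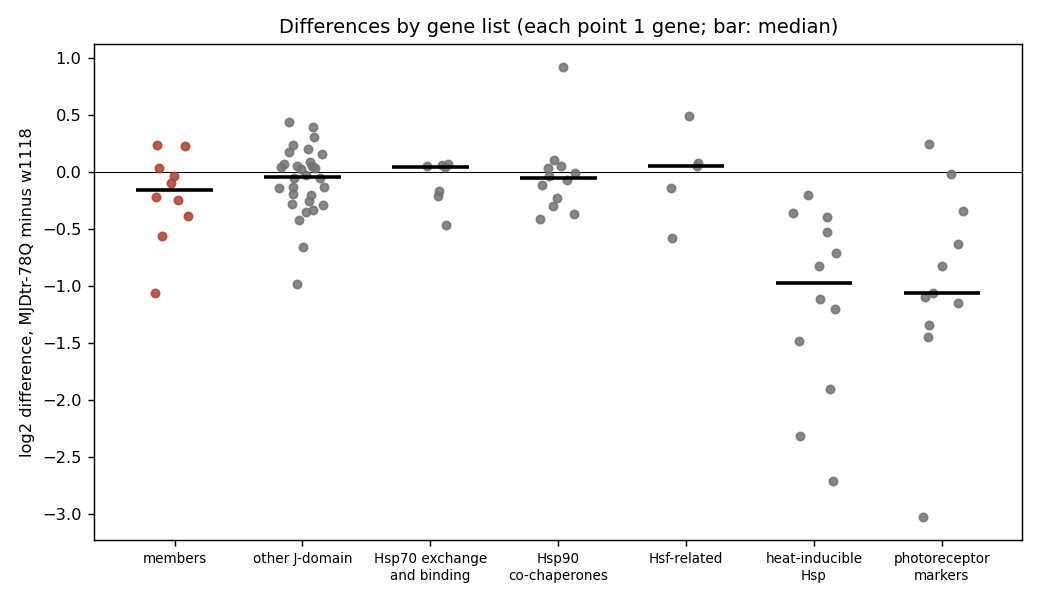
Log2 differences, MJDtr-78Q minus w1118, of single genes (points) by list, with the median of each list (bar). The J-domain, Hsp70 and Hsp90 co-chaperone lists have medians from -0.05 to 0.04, which change sign with a library left out, the 10 described genes -0.16, heat-inducible Hsp genes -0.97 and photoreceptor markers -1.06.

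The pattern over the 4 libraries was compared between genes by the Euclidean distance of log2 values centred on each gene's mean, over n = 4 libraries. Within the 10 genes, the closest pair was Hop and Hsf, at a distance of 0.13, followed by mrj and Droj2 at 0.13 and DnaJ-1 and Hsp83 at 0.23. For stv, the 3 nearest of all tested genes were CG16898, at 0.11, the main opsin gene ninaE, at 0.11, and tobi, at 0.12. ninaE was at 14.43 and 14.31 in MJDtr-78Q libraries, against 15.40 and 15.54 in w1118 libraries. Within 0.5 of stv lay 125 genes, where 226 of all 9049 tested genes were at least 2-fold lower. The distance includes the difference between groups, so it is small only for genes with a difference of similar size. For DnaJ-1 the nearest were CG8079, natalisin and Sry-delta, and for Hsp83 they were CG12253, CG31636 and CG11417, but 2670 and 1554 genes lay within 0.5 of DnaJ-1 and Hsp83, so such likeness was common among small differences.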

How the data were processed

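The deposited file gives log2 values per gene for 4 libraries. They are log2 of a count plus 1 that the authors quantile normalized within each group, as read from the values, a step no label records. The submitters' processing notes name HTSeq 0.6.1, TopHat2 2.0.10 with Bowtie, cutadapt 1.2.1 and CASAVA 1.8.2, with no roles given. Libraries were poly(A)-selected and stranded (TruSeq), per the labels' protocols. The sources used here give no genome build or annotation release. Coordinates are those of the table, whose starts count from 0 (lengths equal those of the BDGP6 annotation for 7421 of 14921 genes that way, for 175 otherwise), printed from 1. Exonic lengths came from BDGP6 by gene ID, for 95.5% of tested genes.

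Here the 4 libraries were quantile normalized together, genes with a back-transformed mean of at least 10 were kept, and limma 3.58.1 (R 4.3.3) compared the groups (intensity trend, two-sided, Benjamini-Hochberg over all tested genes). Per-gene counting error is unknown because whole reads are not held in the file. Labels do not say that libraries came from separate flies, so p-values measure only how far these samples spread, which may be technical. The steps were run on simulated data that held neither the length trend nor the replicate differences seen here. That run does not show how well they perform on these data. The 10 genes and the lists were chosen with earlier results of these data known. CG5393 was left out of the Hsp90 list, having been entered by mistake. Named genes were the 10 and the 3 of lowest p in each pathway list and among photoreceptor markers. The 3 nearest in pattern to DnaJ-1, stv and Hsp83 were also named. Any other photoreceptor or muscle marker, and Csp, Sec63, DnaJ-60 and CG12020, were named after their values were seen. CG14966 was named for its exon overlap with Hsp83, and the Hsp70 copies for their similar lengths. Of the listed pathway genes, l(3)80Fg, CG32727, unc-45 and Dpit47 had no row under their current ID, and Hsbp1 had no ID. Of the listed markers, chp (photoreceptor), para and VAChT (neuron) and wupA (muscle) had no row either. Neither these genes nor the human transgene were analysed here. Alternatives were other pseudocounts, filters, scalings and variance priors, a length correction (loess, span 0.5), the replicate number as a block, and each library left out.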

Additional observations from a re-analysis of the deposited data

How the results depend on the processing

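Of the 10 genes, none passed limma's adjusted threshold under any alternative except those named here. With the deposited scaling, where all tested genes shift by a median of -1.24, 6794 genes passed (74.7%), 13 of them higher, as did all 10 genes and 57 of 66 listed pathway genes. The median of the 10 was then -1.36, and mrj, Tpr2 and jdp turned to -1.13, -0.94 and -0.97. Relative to that shift, an alternative added once the data had been seen, 0 genes passed and the median of the 10 was -0.12. With the replicate number as a block, 387 genes passed (4.28% of those tested), 1 of the 10 (stv, adjusted p = 0.0271) and 6 of 66 listed genes. With block and length correction together, 676 passed (7.82%), with 2 of the 10 (stv and Hsp83) and 7 of 66 listed genes. Same-numbered deviations correlated at r = 0.54 over genes, but the labels do not say what a number marks. Length correction alone gave 6 genes (0.0694% of those tested) and no filter 49 (0.312%), with 0 of the 10 in either. STUB1 turned to 0.0092 with TMM-type scaling, 0.026 relative to the shift, 0.038 with length correction with or without the block, 0.37 without MJDtr-78Q library 1 and 0.10 without w1118 library 2, and with any 1 library left out it ran from -0.44 to 0.37. With 1 library left out, 0 to 2 genes passed, and the median of the 10 ran from -0.33 to -0.088; the lone library of a group was then assumed to vary like the others. The other 9 genes kept their sign in every setting but the deposited scaling. The deposited values limit precision, since depth per gene is unknown.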
